A study of Homo sapiens with 22 samples.

Results

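The genes described here are 8 that mark mesenchymal cells: VIM, CDH2, SPARC, FN1, ZEB1, ZEB2, SNAI2 and TWIST1. Peaks of every deposited list that lay within 100 kb of a fixed hg19 start site of each gene were taken, and 360 of the 508791 peaks did so, over 22 libraries. The libraries were made by CUT&Tag, in which an antibody tethers a transposase that cuts and tags nearby DNA, in AN3CA, an established human endometrial carcinoma line. The cells expressed wild-type ARID1A (WT), ARID1A with a mutated ARID domain (DBDmut), a truncation called delIDR1, a truncation called CBR, a hybrid of ARID1A with the disordered region of DDX4 (DDX4), or an empty vector (Empty). SMARCA4, SMARCC1 and H3K27ac were each profiled in 1 library for every ARID1A form and in 2 replicates for Empty, and the HA tag is analysed here in DDX4 cells alone. The labels do not give the promoter of the constructs, whether lines were clones or pools, or whether libraries came from separate cultures. No treatment is named, and whether AN3CA cells held ARID1A of their own was not analysed here.

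Epithelial cells that undergo the epithelial to mesenchymal transition lose cell contacts, gain motility and switch on a shared set of genes. VIM encodes vimentin, an intermediate filament protein, and CDH2 encodes N-cadherin, an adhesion molecule. SPARC and FN1 encode proteins of the extracellular matrix, and ZEB1, ZEB2, SNAI2 and TWIST1 encode transcription factors that repress epithelial genes and drive the transition. SMARCA4 is an ATPase of the BAF chromatin remodelling complexes and SMARCC1 a core scaffold subunit, while ARID1A is the large subunit of canonical BAF. H3K27ac is a histone acetylation found at active promoters and enhancers. Peaks show where these proteins and this mark were detected, not how strongly a gene was transcribed, and the expression markers of the line were not analysed here.

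The 250 bases before the start of VIM, SPARC and FN1 are printed because these starts carried the peaks on which the results below turn. They were taken from RefSeq, build GRCh38.p14, and are written 5′ to 3′ on the strand of the gene. The hg19 start sites were not matched to them. VIM lies on the plus strand at chr10:17227991-17228240, SPARC on the minus strand at chr5:151686916-151687165 and FN1 on the minus strand at chr2:215436069-215436318. Capitals mark the cAMP response element TGACGTCA.
VIM: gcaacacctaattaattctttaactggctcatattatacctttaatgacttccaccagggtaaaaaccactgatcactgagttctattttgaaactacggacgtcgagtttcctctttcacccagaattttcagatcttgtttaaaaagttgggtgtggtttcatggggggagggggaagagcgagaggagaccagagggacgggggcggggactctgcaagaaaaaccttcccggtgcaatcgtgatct
SPARC: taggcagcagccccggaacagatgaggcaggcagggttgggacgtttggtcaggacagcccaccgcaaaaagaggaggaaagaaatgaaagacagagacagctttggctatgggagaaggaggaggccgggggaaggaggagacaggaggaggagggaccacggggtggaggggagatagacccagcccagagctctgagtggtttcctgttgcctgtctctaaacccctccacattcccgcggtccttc
FN1: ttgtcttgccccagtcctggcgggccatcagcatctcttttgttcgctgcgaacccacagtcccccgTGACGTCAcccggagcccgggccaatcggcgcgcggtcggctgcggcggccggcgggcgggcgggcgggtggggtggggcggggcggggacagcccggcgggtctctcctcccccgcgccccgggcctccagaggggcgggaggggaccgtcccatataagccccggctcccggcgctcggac
The table held promoters for 6 of the 8 genes. TGACGTCA began 183 bases before the FN1 start and was in 1.65% of all 35116 promoters of the same length. The AP-1 motif TGANTCA was in 1 of 2 CDH2 promoters and in 6.57% of all promoters, and the E-box CACCTG, which ZEB and SNAI proteins are known to bind, in 2 of 7 ZEB1 promoters and 17.5% of all. Both strands were searched, the motifs do not contain one another, and a match describes letters only.

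Each library came as 1 list of peaks, on chromosomes 1 to 22 and X. SMARCA4 lists held 5567 to 15207 peaks, SMARCC1 lists 9685 to 23855 and H3K27ac lists 31745 to 92057. Relative depth, computed from the peak statistics, was 0.917 to 1.95 fragments per kb for SMARCA4 and 1.33 to 3.28 for SMARCC1. For H3K27ac it was 3.59 to 6.05 in 6 of the libraries and 14.5 in Empty replicate 2. Peak names began with 3 stamps whose meaning the labels do not give: WT, DBDmut, delIDR1, CBR and Empty replicate 1 shared the first, DDX4 had the second and Empty replicate 2 the third. With 1 library for each form no test between forms and Empty was run, and the forms are different constructs, not replicates. Fold enrichments are the authors', and ranks were computed here from their -log10 q on chromosomes 1 to 22 and X. Both hold within a library's own list and show no change between lists of different lengths.

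**Figure D1:**
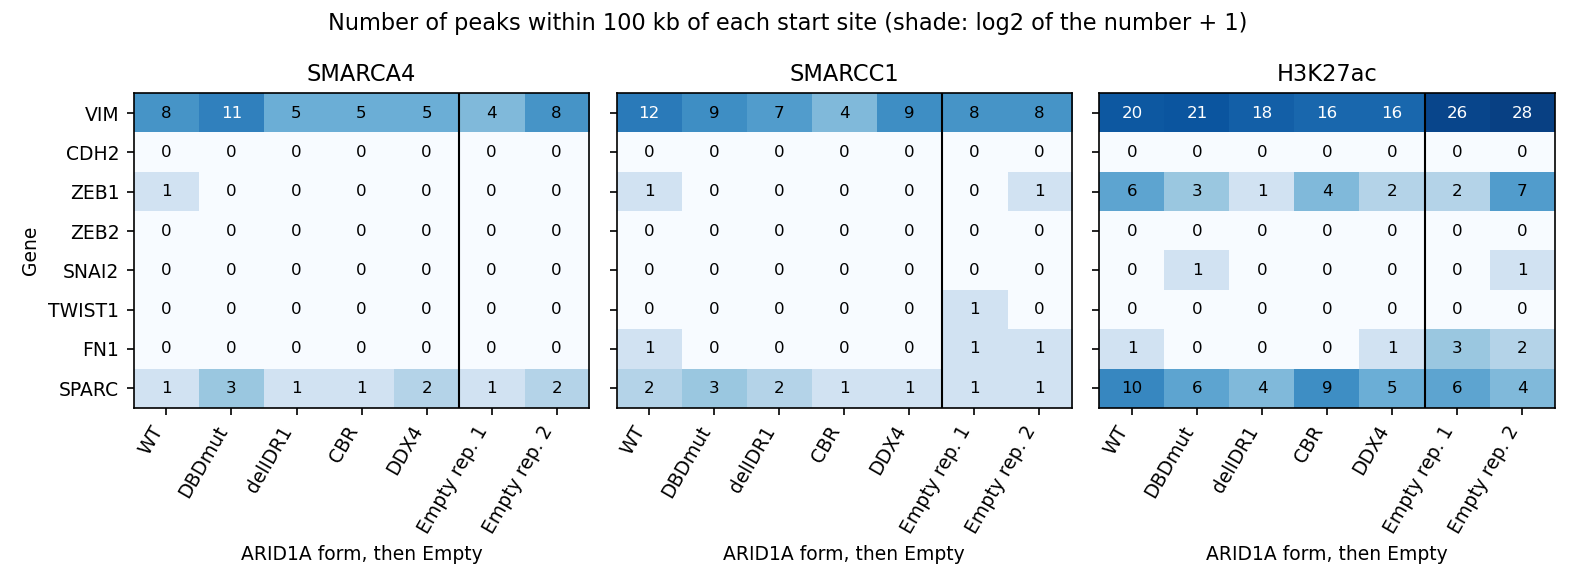
Number of peaks within 100 kb of each start site (rows, genes) in every library (columns, the ARID1A forms and then the Empty replicates), in 1 panel per antibody, with the number in each cell and shade on a log2 scale. VIM has peaks of all 3 antibodies in every library, SPARC follows, and CDH2 and ZEB2 are at 0 throughout.

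VIM held 253 of the 360 peaks (70.3%), SPARC 66 (18.3%), ZEB1 28 (7.78%) and FN1 10 (2.78%). SNAI2 had 2 peaks, TWIST1 had 1, and CDH2 and ZEB2 had 0. VIM and SPARC thus held most of the peaks, FN1 had fewer than ZEB1, and the other 3 transcription factor genes had next to none. Windows with 0 peaks were common: of 15188 windows of 200 kb along the genome, 3067 (20.2%) held no peak in any library. These were tiled end to end over whole chromosomes, with peaks placed by their middle, and were not centred on gene starts.

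Over the 8 genes, SMARCA4 peaks numbered 10 in WT, 14 in DBDmut, 6 in delIDR1, 6 in CBR, with 7 in DDX4, against 5 and 10 in the Empty replicates. SMARCC1 peaks numbered 16, 12, 9, 5 and 10 in the forms in the same order, against 11 in each Empty replicate. H3K27ac peaks numbered 37, 31, 23, 29 and 24, against 37 and 42 in Empty. For SMARCA4, DBDmut was above both Empty replicates, WT equalled replicate 2 and the other 3 forms lay between the replicates. For SMARCC1, WT and DBDmut were above Empty and the other 3 forms below. For H3K27ac no form was above either Empty replicate. WT equalled Empty replicate 1.

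A peak that met no peak of the same antibody in either Empty replicate, by at least 1 bp, is called gained. In WT, 2 of 10 SMARCA4 peaks near these genes were gained, beside 63.7% of the whole WT list. For SMARCC1, 5 of 16 WT peaks were gained, beside 57.2%, and for H3K27ac 14 of 37, beside 40%. Without Empty replicate 2 the SMARCA4 count was 6, for which no whole-list share was computed. The 2 SMARCA4 gains lay near VIM and ZEB1, the SMARCC1 gains near VIM (2), ZEB1, FN1 and SPARC (1 each), and the H3K27ac gains near SPARC (7), VIM (4) and ZEB1 (3). With all windows counted, the WT share was below the list's share for the subunits and close to it for H3K27ac. The H3K27ac windows differed, with 4 of 20 WT peaks gained at VIM and 7 of 10 at SPARC. Without the VIM window, H3K27ac gains in WT were 10 of 17, above the list's share. In the same way SMARCA4 gains were 1 of 2 and SMARCC1 gains 3 of 4.

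The other forms gave the following counts. In DBDmut, 5 of 14 SMARCA4 peaks (58.9% of the list), 3 of 12 SMARCC1 peaks (44%) and 10 of 31 H3K27ac peaks (33.1%) were gained. In delIDR1 the counts were 2 of 6 (44.4%), 2 of 9 (31%) and 5 of 23 (31.2%). In CBR they were 0 of 6 (57.8%), 0 of 5 (34.3%) and 5 of 29 (20.4%). DDX4 had 1 of 7 (32.2%), 1 of 10 (18.3%) and 3 of 24 (15.4%). The CBR gains were H3K27ac peaks, 4 near SPARC and 1 near ZEB1. Without the VIM window, H3K27ac gains were 7 of 10 in DBDmut, 3 of 5 in delIDR1, 5 of 13 in CBR and 2 of 8 in DDX4, each above the list's share. In the same order SMARCA4 gains were 2 of 3, 0 of 1, 0 of 1 and 1 of 2, and SMARCC1 gains 2 of 3, 1 of 2, 0 of 1 and 0 of 1. Without Empty replicate 2, SMARCA4 gains numbered 9 in DBDmut, 2 in CBR and 3 in DDX4, SMARCC1 gains 5 in DBDmut and 2 in DDX4, and H3K27ac gains 9 in CBR and 5 in DDX4. Without Empty replicate 1, CBR had 1 SMARCA4 gain and DDX4 had 2 SMARCC1 gains. The 0 SMARCA4 gains of CBR also became 1 at a -log10 q of at least 5, with lists of equal length, with 50% overlap and with summits within 250 bp. Whole-list shares were not computed without an Empty replicate or under these settings, so whether the shift concerned these genes was not tested.

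**Figure D2:**
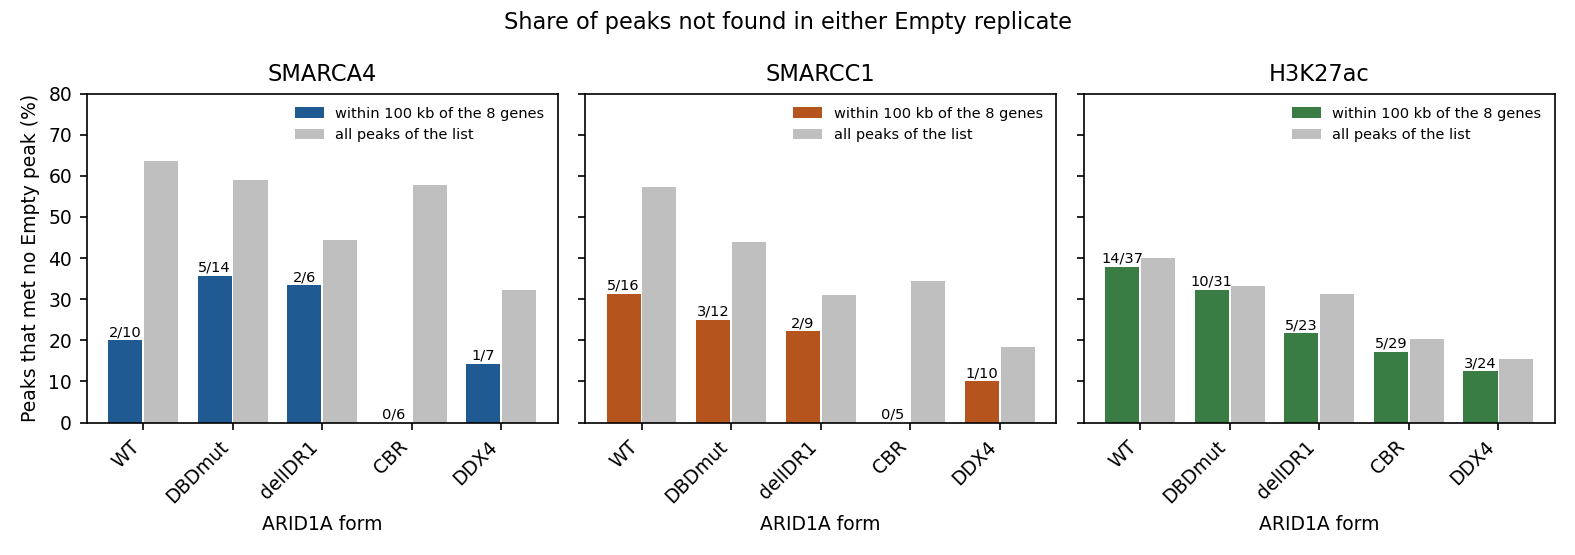
Share of peaks that met no Empty peak (vertical axis, percent), for each ARID1A form (horizontal axis), in 1 panel per antibody. Coloured bars are peaks near the 8 genes, with their counts above, and grey bars all peaks of the list. The coloured bars, which include the VIM window, are below the grey ones in every form and panel. Without that window the H3K27ac shares of every form would lie above the grey bars.

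Between the Empty replicates themselves, 1 of the 5 SMARCA4 peaks of replicate 1 near these genes was absent from replicate 2 (34.8% of the list) and 6 of the 10 of replicate 2 from replicate 1 (62.7%). For SMARCC1 these were 2 of 11 (33.7%) and 2 of 11 (43.7%), and for H3K27ac 12 of 37 (21.6%) and 22 of 42 (75.3%). Each of these counts is against 1 Empty replicate, whereas a gained peak had to miss both, so the counts are not set against each other. SMARCC1 depth was 3.28 fragments per kb in WT, the highest of the 7 libraries, against 2.1 and 2.45 in Empty, and its part in the WT SMARCC1 counts was not tested.

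Of the 14 H3K27ac peaks gained in WT, DBDmut also had 6 (41.2% over the genome), delIDR1 3 (33.1%), CBR 1 (7.7%) and DDX4 3 (7.5%). The 6 in DBDmut were 4 near SPARC, 1 near VIM and 1 near ZEB1. CBR's single peak lay near SPARC, and DDX4's were 2 near SPARC and 1 near VIM. Of the 5 SMARCC1 peaks gained in WT, DBDmut had 2 (30%), delIDR1 1 (12.7%), CBR 0 (8.99%) and DDX4 1 (4%), and of the 2 SMARCA4 peaks DBDmut had 1 (36%) and delIDR1, CBR and DDX4 had 0 (18%, 14.9% and 5.95%).

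A SMARCA4 peak that met a SMARCC1 peak of the same library is called a BAF site, without saying which complex held the subunits. Near these genes, 8 of 10 SMARCA4 peaks were BAF sites in WT (75.2% of the list), 12 of 14 in DBDmut (65%), 4 of 6 in delIDR1 (64.5%), 3 of 6 in CBR (47.6%) and 6 of 7 in DDX4 (54.5%), against 4 of 5 (75.1%) and 7 of 10 (70.3%) in the Empty replicates. BAF sites that met neither subunit in Empty numbered 0 of 8 in WT (45%), 2 of 12 in DBDmut (28.4%), 0 of 4 in delIDR1 (17.9%), 0 of 3 in CBR (13.2%) and 0 of 6 in DDX4 (1.25%). Every BAF site of WT, all near VIM and SPARC, thus met a subunit peak of at least 1 Empty replicate. Without Empty replicate 2 the WT count was 1. Both sites gained in DBDmut lay near SPARC. The DBDmut count was 4 without Empty replicate 2 and 0 with lists of equal length. No whole-list share was computed for these recounts of WT and DBDmut. H3K27ac overlapped 8 of 8 sites in WT (90.4%), 11 of 12 in DBDmut (88.4%), 4 of 4 in delIDR1 (89.8%), 3 of 3 in CBR (82.2%) and 6 of 6 in DDX4 (96.4%), against 4 of 4 (92.4%) and 7 of 7 (96.6%) in the Empty replicates.

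VIM, which encodes the main intermediate filament of mesenchymal cells, starts at position 17270258 of chromosome 10 on the plus strand. In WT, DBDmut, delIDR1, CBR and DDX4 its window held 8, 11, 5, 5 and 5 SMARCA4 peaks, against 4 and 8 in Empty. SMARCC1 peaks numbered 12, 9, 7, 4 and 9, against 8 and 8. H3K27ac peaks numbered 20, 21, 18, 16 and 16, against 26 and 28. H3K27ac peak numbers of the forms were all below those of Empty at VIM, whereas the subunits' numbers overlapped. The covered length did not separate in this way, with 8.84, 12.1, 12.6, 5.54 and 9.8 kb of H3K27ac peaks in the forms, against 8.96 and 11.7 kb in Empty, so 2 forms covered more than either Empty replicate. Few of the tiled 200 kb windows were as densely occupied, though they were not centred on gene starts as the VIM window was. Between 0.23% and 2.7% of them had at least as many SMARCA4 peaks as VIM in the same library. At least as many SMARCC1 peaks were in 0.632% to 5.22% and at least as many H3K27ac peaks in 0.856% to 3.31%.

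**Figure D3:**
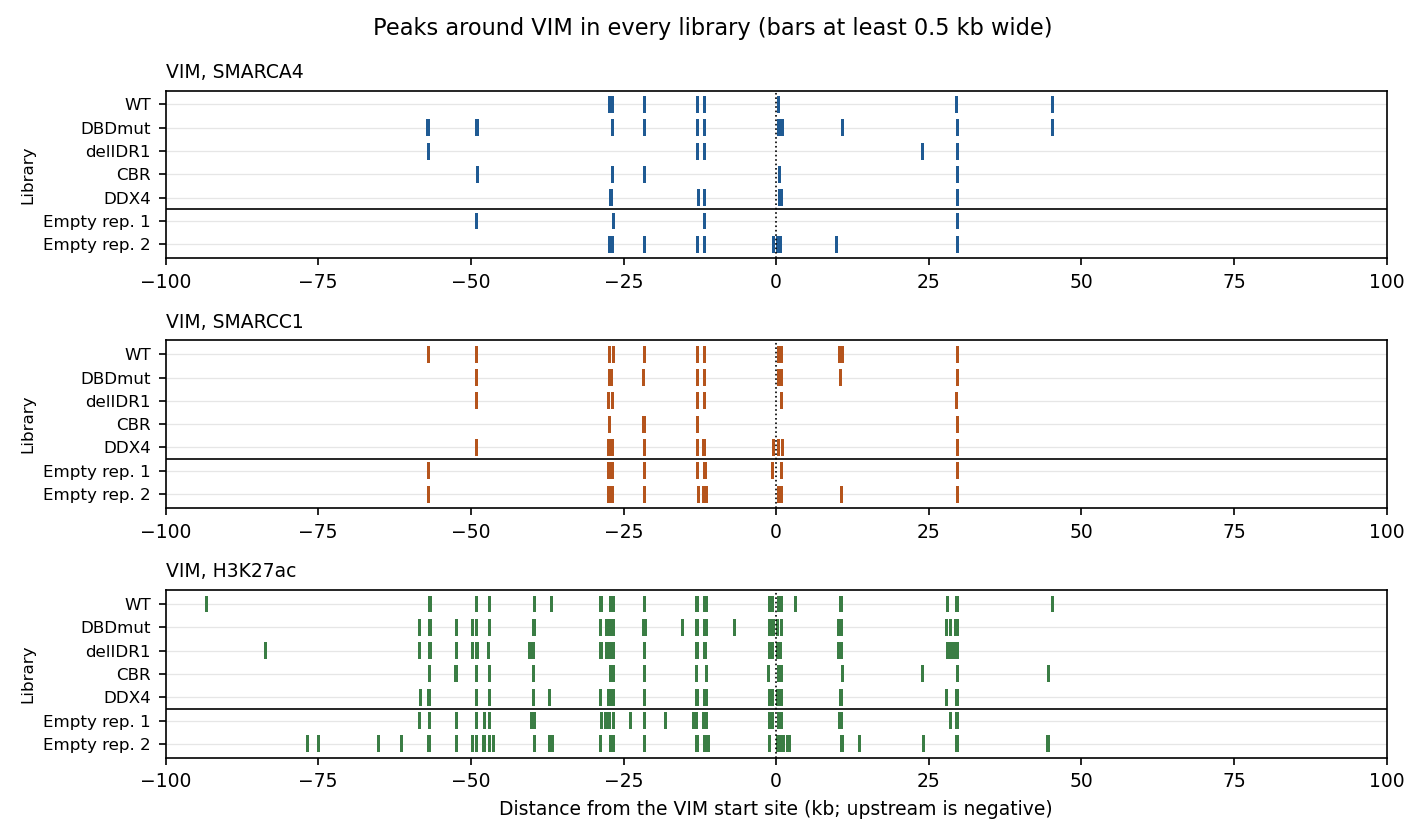
Peaks of SMARCA4, SMARCC1 and H3K27ac (panels) around the VIM start in each library (rows, ARID1A forms above Empty), by distance from the start in kb with upstream negative; bars are peaks, widened to at least 0.5 kb. Columns of peaks recur at about the same places in most libraries, from -57.0 to 29.7 kb.

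Most VIM peaks fell at a fixed set of places, seen as the recurring columns in the map of VIM peaks. RefSeq places the coding genes TRDMT1 before VIM and ST8SIA6 after it, and the peaks were not assigned between them. Merged over libraries there were 39 H3K27ac regions, of which 12 were found in all 7 libraries, 8 in some forms and Empty, 7 in forms alone and 12 in Empty alone. Of the regions in Empty alone, only that at -47.8 kb was in both replicates, and each of the others was in a single replicate. Regions were merged near the 8 genes alone, so their counts have no share over the genome beside them and show no gain or loss. SMARCC1 had 10 regions, 3 of them in all 7 libraries and 1 in forms alone, and SMARCA4 had 13, with 1 in all 7 and 4 in forms alone. Of the 20 WT H3K27ac peaks at VIM, 13 met a peak in each of the other 6 libraries, beside 24.6% of the whole WT list, and 3 of the 12 WT SMARCC1 peaks did, beside 14.7%. For SMARCA4 the count was 0 of 8, beside 15%. By this count of WT peaks, H3K27ac around VIM was the most often shared and SMARCA4 the least. Merged regions gave another order. A single library held 18 of the 39 H3K27ac regions, 4 of the 13 SMARCA4 regions and 0 of the 10 SMARCC1 regions.

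The VIM start itself carried H3K27ac in all 7 libraries, with a fold at the strongest peak of 3.42 in WT, 3.35 in DBDmut, 3.6 in delIDR1, 4.77 in CBR, with 3.62 in DDX4, against 3.59 and 4.93 in Empty. Those H3K27ac peaks were centred upstream of the start in DBDmut, delIDR1 and Empty replicate 1 and downstream in the other libraries. SMARCC1 was at the start in every library but CBR. The fold at its strongest peak was 4.09 in WT, 4.84 in DBDmut, 6.09 in delIDR1 and 4.72 in DDX4, against 7.96 and 5.03 in Empty. The 7.96 of Empty replicate 1 lay at -0.5 kb, and its peak at 0.9 kb had a fold of 5.98. SMARCA4 was there in WT (6.61), DBDmut (5.49), CBR (6.25) and DDX4 (6.92), against 7.32 in Empty replicate 2, and was not called in delIDR1 or Empty replicate 1. No antibody separated the forms from Empty at this start. CBR was the sole library with SMARCA4 and no SMARCC1 there. SMARCC1 depth was 2.86 fragments per kb in CBR, against 2.1 and 2.45 in Empty, and its part in this absence was not tested.

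The VIM element found with all 3 antibodies in all 7 libraries lay at 29.7 kb, on chromosome 10 from 17299741 to 17300128 in the DBDmut SMARCA4 list. For SMARCA4 it was so only as a merged region: the WT peak (17299674 to 17299843) met those of DBDmut, delIDR1 and Empty replicate 1 and not those of CBR, DDX4 or Empty replicate 2. The SMARCA4 fold was 4.38 in WT, 7.85 in DBDmut, 7.65 in delIDR1, 7.05 in CBR, with 6.21 in DDX4, against 5.93 and 12.2 in Empty. The SMARCC1 fold was 9.62, 10.9, 6.97, 7.89 and 7.65 in the forms, against 11 and 12.3 in Empty. The H3K27ac fold was 13.3, 7.7, 7.97, 8.13 and 9.8, against 12.3 and 9.44. The SMARCC1 folds of the forms were below those of Empty, at the closest 10.9 in DBDmut against 11 in Empty replicate 1. For SMARCA4 and H3K27ac the ranges of forms and Empty overlapped. Folds hold within their own lists, so these orders show no change between libraries. Cells without added ARID1A had the element in both replicates.

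The element at -11.7 kb held the most enriched subunit peaks of the window in several lists. SMARCC1 ranked 193 of 9685 peaks in DDX4, against 131 of 13641 in Empty replicate 1 and 216 of 15461 in Empty replicate 2. The SMARCC1 fold was 7.55 in WT, 10.1 in DBDmut, 10.3 in delIDR1 and 14.1 in DDX4, against 14.5 and 11.2 in Empty, and CBR had no peak. SMARCA4 was likewise called in every library but CBR, with folds of 6.53, 11.3, 6.93 and 8.2 in the other forms in that order, against 8.49 and 12.1 in Empty. CBR had an H3K27ac peak at -11.4 kb (17258696 to 17259066, fold 4.9) that did not reach the SMARCA4 peak of Empty replicate 1. Near the 8 genes, CBR lacked 4 of the 9 SMARCC1 peaks found in both Empty replicates (39.5% over the genome), of which 3 were at VIM.

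The other forms lacked fewer of the SMARCC1 peaks that both Empty replicates had. Over the 8 genes, WT lacked 1 of the 9 such SMARCC1 peaks (21.2%), DBDmut 2 (18%), delIDR1 3 (38.3%) and DDX4 2 (33.3%). Of 4 such SMARCA4 peaks, WT, DBDmut and DDX4 lacked 0 (24.2%, 12.4% and 12%), while delIDR1 and CBR lacked 1 each (31.8% and 17%), both at VIM. Of 25 such H3K27ac peaks, WT lacked 3 (20.2%), DBDmut 5 (23.9%), delIDR1 6 (34.8%), CBR 4 (30.6%) and DDX4 2 (17.2%). Counted over the peaks of 1 Empty replicate alone, the H3K27ac peaks that a form lacked were 22 (WT), 24 (DBDmut), 25 (delIDR1), 21 (CBR) and 22 (DDX4) of the 42 of replicate 2. Of the 37 of replicate 1 they lacked 13, 11, 12, 16 and 9. Empty replicate 1 itself lacked 22 of the 42. Counted in that way, the forms lacked 2 to 6 of 11 SMARCC1 peaks in either replicate. They lacked 0 to 6 SMARCA4 peaks, of 5 in replicate 1 and 10 in replicate 2. Whole-list shares were not computed for these losses, so they are not read as an effect of the forms. At VIM the H3K27ac peak of highest -log10 q that both Empty replicates had and WT lacked lay at -52.4 kb. It was called in DBDmut (fold 3.21), delIDR1 (2.74) and CBR (4.56), against 4.55 and 3.45 in Empty, and DDX4 lacked it as well. A weaker peak at -47.8 kb was in none of the 5 forms, against folds of 2.98 and 2.76 in the Empty replicates, as were 6.18% of all H3K27ac peaks of both Empty replicates.

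Subunit peaks at VIM that Empty lacked were few. At -49.0 kb SMARCC1 was called in WT (fold 9.66), DBDmut (7.95), delIDR1 (6.52) and DDX4 (10.1) and in neither CBR nor Empty. SMARCA4 at the same place was found in DBDmut (8.41) and CBR (7.72), against 6.86 in Empty replicate 1, and H3K27ac was found in all 7 libraries. SMARCC1 was thus gained here in 4 forms, at a place with SMARCA4 in 1 Empty replicate. At -56.9 kb the order was the other way, with SMARCC1 in WT (6.72), against 5.77 and 7.06 in Empty, and in no other form. SMARCA4 peaks there, in DBDmut (4.63) and delIDR1 (4.98), had no counterpart in Empty.

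At 45.3 kb, WT had both a SMARCA4 peak (17315499 to 17315617, fold 8.87) and an H3K27ac peak (fold 7.29, the gained VIM H3K27ac peak of highest -log10 q), and no SMARCC1. DBDmut shared the SMARCA4 peak (4.43) and lacked the H3K27ac peak. CBR and Empty replicate 2 had H3K27ac peaks nearby, at 44.6 and 44.5 kb, that did not overlap it. The WT SMARCA4 peak rested on 10 fragments at its summit and the DBDmut peak on 4. The other gained WT H3K27ac peaks at VIM lay at -93.2 kb (6.03), at 3.2 kb (2.61) and at 28.0 kb (4.33), and the last of these was also called in DBDmut, delIDR1 and DDX4.

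CDH2, which encodes N-cadherin, starts at position 25757445 of chromosome 18. No library of the 22 had a peak within 100 kb of it. The nearest SMARCA4 peak in any library lay 229 kb away, in Empty replicate 1, the nearest SMARCC1 peak 816 kb and the nearest H3K27ac peak 978 kb, in WT. The gene lay in a stretch without H3K27ac peaks in every form and in Empty.

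SPARC, a matrix protein that binds collagen, starts at position 151066510 of chromosome 5 on the minus strand. Its window held 1, 3, 1, 1 and 2 SMARCA4 peaks in WT, DBDmut, delIDR1, CBR and DDX4, against 1 and 2 in Empty. SMARCC1 peaks numbered 2, 3, 2, 1 and 1, against 1 and 1, and H3K27ac peaks 10, 6, 4, 9 and 5, against 6 and 4. WT and CBR had more H3K27ac peaks than both Empty replicates, DBDmut more SMARCA4 peaks, and WT, DBDmut and delIDR1 more SMARCC1 peaks. Upstream of SPARC, RefSeq places the coding genes ATOX1 and then G3BP1, and without an hg19 annotation the upstream peaks were not assigned to any of the 3 genes.

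**Figure D4:**
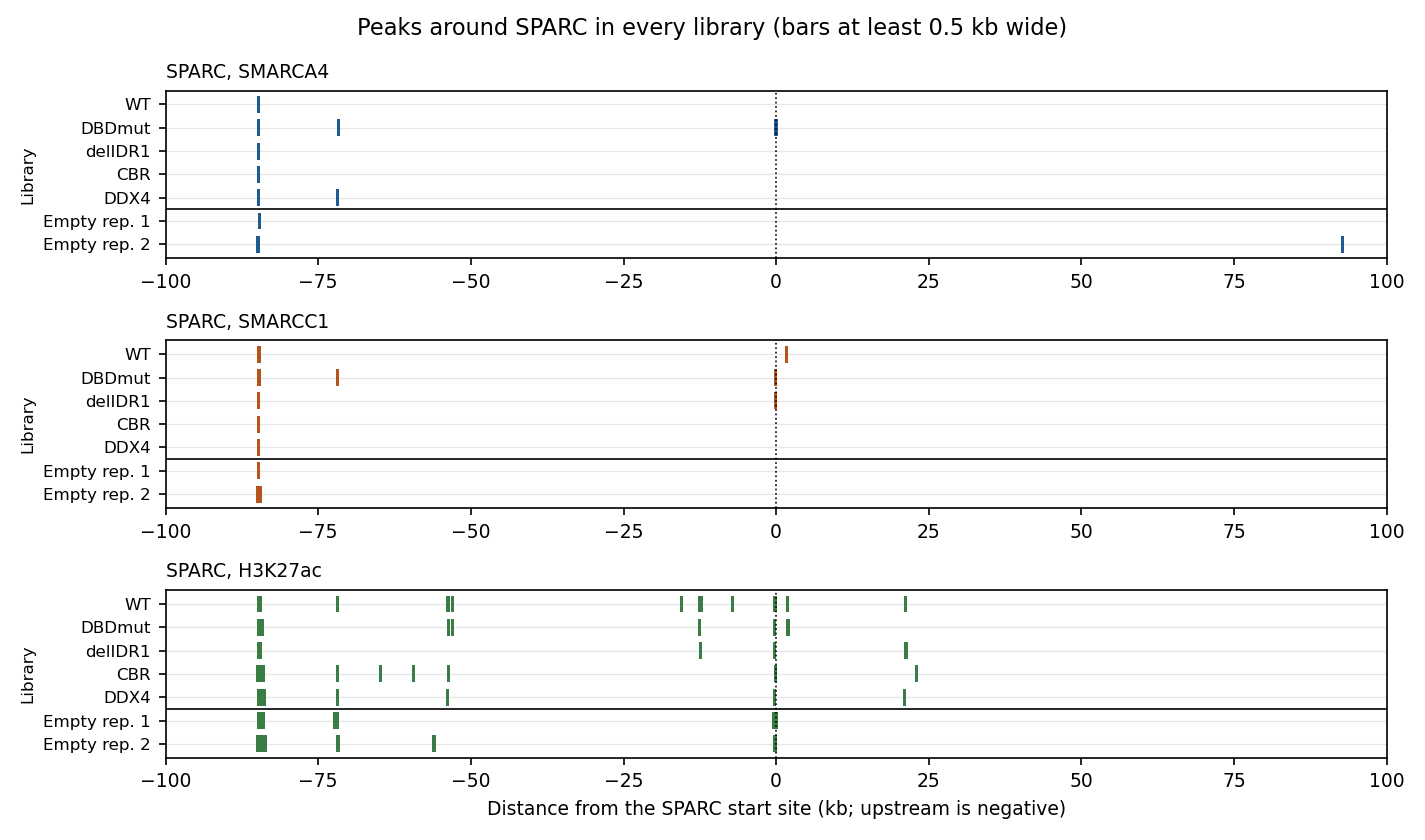
Peaks of SMARCA4, SMARCC1 and H3K27ac (panels) around the SPARC start in each library (rows, ARID1A forms above Empty), by distance from the start in kb with upstream negative; bars are peaks, widened to at least 0.5 kb. A site at -84.8 kb has both subunits in all 7 libraries, and subunit peaks at the start are seen in DBDmut and delIDR1.

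The SPARC start had an H3K27ac peak in all 7 libraries. The fold was 8.17 in WT, 8.93 in DBDmut, 7.88 in delIDR1, 10.7 in CBR, with 12.1 in DDX4, against 8.2 and 9.11 in Empty. BAF subunits were called at this start in 2 of the forms. DBDmut had SMARCA4 (fold 9.09, 151066475 to 151066597, 13 fragments at the summit) and SMARCC1 (7.03, 11 fragments), and delIDR1 had SMARCC1 (7.38, 9 fragments) without SMARCA4. Neither subunit was called there in WT, CBR, DDX4 or Empty. SMARCA4 depth was 0.917 fragments per kb in DBDmut and 1.02 in delIDR1, against 1.53, 1.19 and 1.22 in WT, CBR and DDX4 and 1.23 and 1.95 in Empty. SMARCC1 depth was 1.62 and 1.33, against 3.28, 2.86 and 1.4 in those forms and 2.1 and 2.45 in Empty, and the part of depth in these absences was not tested. The start was thus acetylated in every library and had a BAF site in DBDmut.

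Upstream, the site at -84.8 kb carried SMARCA4, SMARCC1 and H3K27ac in all 7 libraries. The SMARCA4 fold was 7.35 in WT, 9.3 in DBDmut, 9.31 in delIDR1, 7.97 in CBR, with 12.1 in DDX4, against 10 and 11.2 in Empty, and the SMARCC1 fold was 11.5, 12.1, 9.27, 8.13 and 11.1, against 14.1 and 10.2. H3K27ac was in all 7 libraries there as a merged region. Inside that region, the SPARC H3K27ac peak that both Empty replicates had and WT lacked lay at -84.0 kb. It ran from 151150409 to 151150566 in Empty replicate 1 (fold 4.85), and delIDR1 lacked it as well. At -71.8 kb a subunit and the mark were called together in DDX4 alone. DBDmut had SMARCA4 (5.31, 5 fragments at the summit) and SMARCC1 (6.51, 7 fragments), and DDX4 had SMARCA4 (5.69, 6 fragments). H3K27ac was called in WT (9.86), CBR (7.55) and DDX4 (8.54), against 8.57 and 12.5 in Empty, and not in DBDmut or delIDR1. That DBDmut site was its sole BAF site near these genes without H3K27ac. Gained DBDmut BAF sites near these genes fell from 2 to 1 at a -log10 q of at least 5 and with 50% overlap.

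SPARC had more H3K27ac gains in WT than any other of the 8 genes. Of its 10 WT peaks, 7 were absent from both Empty replicates, beside 40% of the whole WT list. With lists of equal length, the WT gains over all 8 genes fell from 14 to 5. The peak of highest -log10 q lay at -53.0 kb (151119248 to 151119772, fold 8.06) and was found in DBDmut (5.05) but in no other library. Next to it, a peak at -53.7 kb (3.98 in WT) was also called in DBDmut (5.4), CBR (6.81) and DDX4 (6.48). A peak at -12.4 kb (6.77) recurred in DBDmut (4.63) and delIDR1 (4.03), and 1 at 21.2 kb (6.52) in delIDR1 (4.73) and DDX4 (4.04). A peak at 1.8 kb (4.9) recurred in DBDmut (4.63), while those at -7.1 kb (4.58) and -15.5 kb (3.83) were in WT alone. Of the 7 places, 5 were called again in another form. The share called again in any form was not computed over all gained WT H3K27ac peaks, so this count is not particular to SPARC. H3K27ac depth was 4.48 fragments per kb in WT, against 4.4 and 14.5 in Empty, and its part in these gains was not tested. All 7 WT peaks were weaker than the start site peak by fold, and their summits held 12 to 26 fragments.

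FN1, which encodes fibronectin, starts at position 216300791 of chromosome 2 on the minus strand. Its window held 0 SMARCA4 peaks in every library. SMARCC1 was called at the start in none of the 5 forms, against a peak in both Empty replicates (216301141 to 216301412, fold 6.68, in replicate 1 and fold 6.4 in replicate 2). Of the 9041 SMARCC1 peaks of both Empty replicates, 6.4% were absent from all 5 forms in this way, and 1 of the 9 near the 8 genes. The peaks stood in the weaker part of their lists, at rank 9218 of 13641 (67.6%) and 10788 of 15461 (69.8%). SMARCC1 depth was 3.28 fragments per kb in WT and 2.86 in CBR, and 1.62, 1.33 and 1.4 in DBDmut, delIDR1 and DDX4, against 2.1 and 2.45 in Empty. The part of depth in this absence was not tested.

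H3K27ac at the FN1 start was called in WT (6.08) and DDX4 (7.09), against 5.55 and 7.85 in Empty, and not in DBDmut, delIDR1 or CBR. WT and DDX4 therefore kept the mark at a start where SMARCC1 was not called. WT also had a SMARCC1 peak of its own at 33.8 kb (5.42). DBDmut, delIDR1 and CBR had no FN1 peak of any antibody. The start is the one whose promoter holds the TGACGTCA match printed above.

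**Figure D5:**
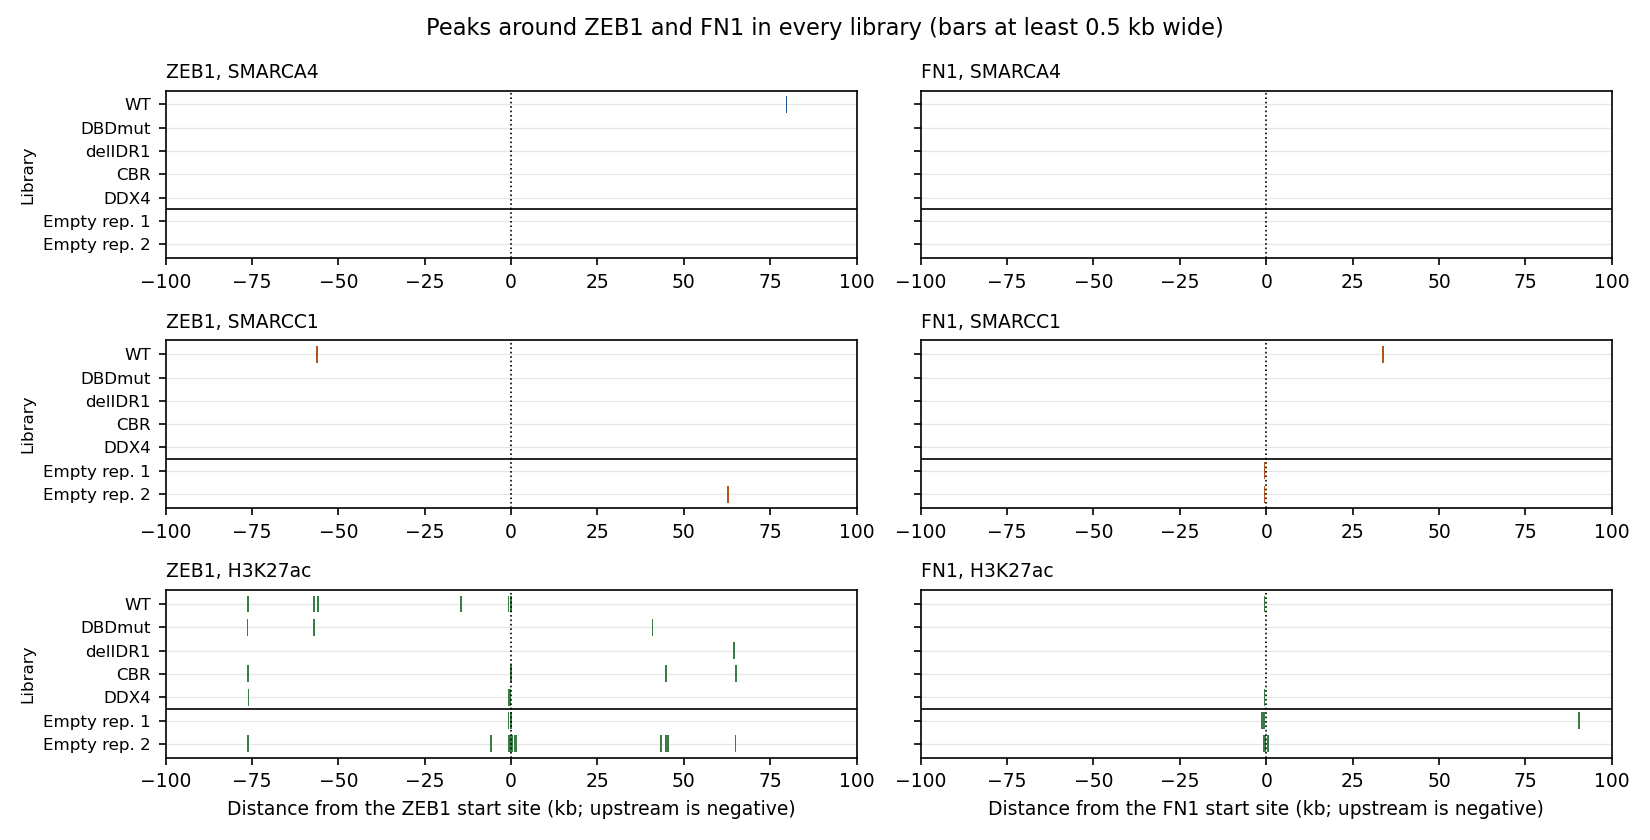
Peaks of SMARCA4, SMARCC1 and H3K27ac (panel rows) around the ZEB1 (left) and FN1 (right) starts in each library, ARID1A forms above Empty, by distance from the start in kb with upstream negative; bars are peaks, widened to at least 0.5 kb. At FN1 SMARCC1 is at the start in both Empty replicates alone, and at ZEB1 the start has H3K27ac in 5 of the 7 libraries.

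ZEB1, a zinc finger repressor of epithelial genes, starts at position 31608101 of chromosome 10 on the plus strand. Its window held 6, 3, 1, 4 and 2 H3K27ac peaks in WT, DBDmut, delIDR1, CBR and DDX4, against 2 and 7 in Empty. H3K27ac at the start was called in WT (fold 6.93), CBR (5.52) and DDX4 (5.99), against 5.36 and 6.63 in Empty, and in neither DBDmut nor delIDR1. The strongest ZEB1 peak of the WT list lay at -76.1 kb (11.3) and was also found in DBDmut (4.96), CBR (5.93) and DDX4 (4.38), against 6.96 in Empty replicate 2. It was not called in delIDR1 or Empty replicate 1. Of the 13 merged H3K27ac regions, 0 were found in all 7 libraries.

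BAF subunits were sparse around ZEB1. WT had 1 SMARCA4 peak at 79.7 kb (4.4) and 1 SMARCC1 peak at -56.2 kb (4.58), and Empty replicate 2 had 1 SMARCC1 peak at 62.8 kb (5.58). None of the 3 met a peak of the other subunit, and the WT peaks stood at ranks 11962 of 12949 and 22618 of 23855, near the ends of their lists. The gained WT H3K27ac peak of highest -log10 q lay at -57.1 kb (6.01) and was shared by DBDmut (4.96). At the start of ZEB1, H3K27ac was called in 5 libraries and neither subunit in any.

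FN1 and ZEB1 had the same absences in part: DBDmut and delIDR1 called no H3K27ac at either start, while WT, DDX4 and both Empty replicates did. Over the genome, 23.9% of the H3K27ac peaks of both Empty replicates were absent from DBDmut and 34.8% from delIDR1. Both forms also lacked such a peak at -71.8 kb from SPARC, so the pattern was not particular to these starts. DBDmut and delIDR1 had 4.65 and 3.59 fragments per kb for H3K27ac, against 4.48 in WT, 6.05 in DDX4, and 4.4 and 14.5 in Empty, and the part of depth in these absences was not tested. At the VIM and SPARC starts both forms did call the mark.

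ZEB2, a relative of ZEB1, starts at position 145277958 of chromosome 2 and had no peak within 100 kb in any library. The nearest SMARCA4 and SMARCC1 peaks lay 188 kb away, in Empty replicate 2, and the nearest H3K27ac peak 187 kb away, in CBR. SNAI2, which encodes the repressor Slug, starts at position 49833999 of chromosome 8. Its 2 peaks were both H3K27ac: 1 in DBDmut, 0.367 kb from the start (49834366 to 49834561, fold 6.61, 11 fragments), and 1 in Empty replicate 2 at 56.1 kb (3.65). TWIST1, a basic helix-loop-helix factor, starts at position 19157295 of chromosome 7 and had a single SMARCC1 peak, 65.6 kb away, in Empty replicate 1 (6.5). For these 3 factors no peak recurred in a second library. None of the 4 transcription factor genes had a BAF site in any library.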

How the data were processed

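CUT&Tag peak lists of 22 libraries of AN3CA cells were used, grouped by construct and antibody from the sample titles. Per the submitters' processing notes, bcl2fastq (no version) and the build hg19 were used. No aligner, peak caller or control is given in the sources used here. Per the labels' protocols, nuclei were handled with a kit maker's CUT&Tag protocol. Each library had 1 deposited list, so peaks were called per library. The deposited columns are the authors' score, their fold enrichment (a ratio of summit to local background) and their -log10 p-value and -log10 q-value.

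The 8 genes and their start sites, and the lists and motifs, were chosen with earlier results of these data known. Peaks within 100 kb of a start, on chromosomes 1 to 22 and X, were members, and peaks sharing at least 1 bp were counted as met. A peak touching 1 kb on either side of a start was at the start. The pileup and background of each peak were solved from its fold and p-value, to 0.001 in -log10 p, and the lowest background divided by the shortest peak length gave fragments per kb. Distances run from the start to the middle of a peak, except nearest peaks, which run to the edge. For SNAI2 and TWIST1 they follow the genome, not the gene.

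No test was run: 1 library per form cannot give one, and 5 forms against 2 Empty replicates could not go below an exact p of 0.0476. Counts stand beside the same count over the whole list. Exceptions include merged regions, recounts under alternative settings, losses counted over 1 Empty replicate and SPARC gains called again in another form. In each window the text names the peaks at the start, the gained WT H3K27ac peak of highest -log10 q and the H3K27ac peak of both Empty replicates that WT lacked with the highest -log10 q; other peaks were named after their values were seen. The count over sites absent from all 5 forms was also added after the data were seen. The alternatives were a minimum -log10 q of 5, lists of equal length, 50% overlap, summits within 250 bp, a window of 50 kb, the summit rather than any base inside the window, leaving out either Empty replicate, and leaving out the VIM window. Code was tested on simulated data. RefSeq (GRCh38.p14) gave promoter sequences, strands and neighbouring genes, and no hg19 genome or annotation was used here. Python 3.11.15, numpy 2.4.6, pandas 2.3.3, scipy 1.17.1 and matplotlib 3.10.9 were used.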

Additional observations from a re-analysis of the deposited data

Results flagged for a closer look

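HA, the tag on the DDX4 hybrid, was profiled in a single library and enters no comparison above. It had 5 peaks within 100 kb of VIM, at -27.0, -12.8, -11.7, 0.8 and 29.7 kb, and 0 near the other 7 genes. All 5 met a SMARCA4, a SMARCC1 and an H3K27ac peak of DDX4 cells, as did 46.9% of the 5390 HA peaks. Their folds were 6.68, 4.75, 7.45, 4.54 and 7.22 in that order, and their ranks 1353 to 4204. No HA library of cells without the tag was analysed here, so the level to set these peaks against was not measured, and the library had 0.462 fragments per kb.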

How the results depend on the processing

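The counts were small and moved with the settings, and whole-list shares were not recomputed under them. WT gains of SMARCA4 near the 8 genes (2) became 1 with lists of equal length, 4 with summits within 250 bp, 1 with a 50 kb window and 1 without the VIM window, and ran from 3 to 6 without an Empty replicate. WT gains of SMARCC1 (5) became 1 at a -log10 q of at least 5, 1 with lists of equal length and 3 without the VIM window. WT gains of H3K27ac (14) became 9 at the higher q, 5 with equal lists and 9 with a 50 kb window. Of these, those also in DBDmut (6) became 3, 1 and 3 under the same settings, those in delIDR1 (3) became 1 at the higher q, those in CBR (1) became 0 at the higher q, with equal lists, by summits and with the 50 kb window and ran from 1 to 2 without a replicate, and those in DDX4 (3) became 1 at the higher q and 0 with equal lists. BAF sites gained in WT (0) became 1 by summits and ran from 0 to 1 without a replicate; the same held for those also in DBDmut, and those in DDX4 ran from 0 to 1. The causes were not tested. Equal lists held 5567, 9685 and 31745 peaks. Of 350 further comparisons of 39 other counts, 249 stayed within 1.5 times and 101 moved, 46 up and 55 down. Leaving out the VIM window was chosen after seeing the data. No paired analysis was possible because replicate numbers exist for Empty alone. Shallow libraries limit which peaks can be called, so an absent peak is one not called at that depth.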

Other observations

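The local background that the authors' fold divides by, as computed from fold and p-value, was higher at VIM peaks than over all peaks in each of the 7 libraries for SMARCC1 and H3K27ac, and for SMARCA4 in all but delIDR1. For SMARCC1 its median over VIM peaks was 5.61 times the lowest of the library in WT, 21.8 in DBDmut, 11.5 in delIDR1, 5.08 in CBR, with 20.5 in DDX4, against 25.1 and 14.8 in Empty. Over all peaks of the same lists it was 2.46, 3.63, 4.07, 2.71 and 4.22 in the forms, against 3.71 and 3.73 in Empty. WT and CBR were thus the lowest of the 7 at VIM and over all peaks. For H3K27ac the medians at VIM were 13, 20, 18.3, 5.33 and 11.4 in the forms, against 25.5 and 7.67 in Empty, and over all peaks 3.83, 4.07, 4.38, 3.49 and 3.7, against 7.37 and 2.04. For SMARCA4 they were 6.07, 8.21, 2.68, 5.74 and 11.3, against 5.09 and 11.2, and over all peaks 3.13, 4.11, 3.69, 3.08 and 4.77, against 4.6 and 3.18. At FN1 the SMARCC1 peaks of Empty stood on a background of 2.15 and 1.54 times the lowest.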
